A study of Mus musculus with 5 samples.

Results

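The genes described here are the receptors through which retinoic acid acts on transcription, with coregulators that bind them. The list held 9 genes, namely the retinoic acid receptor genes Rara, Rarb and Rarg, the retinoid X receptor genes Rxra, Rxrb and Rxrg, and the coregulator genes Ncor1, Nrip1 and Ncoa2. They were taken by symbol, and the feature naming only that gene with the highest mean over all 5 arrays stood for the gene. Features were found for 8 of the 9 genes, among 22180 genes in all, and Ncor1 was not analysed here. Each of the 8 genes had 1 feature. The samples were hematopoietic stem cells (HSCs) sorted by flow cytometry after stem and progenitor cells of C57BL/6 mice had spent 24 h in culture. The 2 ATRA arrays came from cells kept with 5 µM all-trans retinoic acid, and the 3 DMSO arrays from control cells kept with DMSO. Nothing in the labels says that the arrays of a group came from separate cultures or mice, so the p-values reflect the spread among these arrays alone, and that spread can be technical.

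Retinoic acid, the active derivative of vitamin A, binds nuclear receptors of the RAR family, which sit on DNA as pairs with a receptor of the RXR family. Without ligand the pair holds corepressors such as NCoR1, the product of Ncor1, which bring in histone deacetylases. Ligand changes the shape of the receptor, corepressors leave, and coactivators of the p160 family, to which the Ncoa2 product belongs, bring in histone acetyltransferases and methyltransferases. In mice, RARγ is known for a part in HSC self-renewal and RARα for a part in myeloid differentiation.

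Rarb is both a receptor gene and a textbook target of the receptors, because its promoter carries a retinoic acid response element. The RefSeq promoter window of Rarb (GRCm38.p6, chr14:16575427-16575726, minus strand) is shown because that element can be read in it. The capitals mark a direct repeat of receptor hexamers 5 bases apart.
Rarb promoter: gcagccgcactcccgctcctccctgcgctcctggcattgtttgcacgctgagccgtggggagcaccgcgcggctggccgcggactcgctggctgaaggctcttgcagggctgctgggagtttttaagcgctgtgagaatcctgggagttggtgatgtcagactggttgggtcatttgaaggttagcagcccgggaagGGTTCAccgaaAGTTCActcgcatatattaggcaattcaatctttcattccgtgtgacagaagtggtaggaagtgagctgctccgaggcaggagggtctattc

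The windows reach from 250 bases before a gene start to 50 bases after it, and 17 of them belonged to 8 of the 9 listed genes. Ncoa2 had no entry. They were searched on both strands for pairs of hexamers, each of them AGGTCA or AGTTCA or GGGTCA or GGTTCA, in any combination and in the same direction, with 1, 2 or 5 bases between them. Only the Rarb window held a pair, at a spacing of 5, which lay at chr14:16575513-16575529 and covered the bases 53 to 37 upstream of the gene start. Of all 32851 promoter windows, 32 (0.0974%) held a pair at this spacing, 88 (0.268%) at a spacing of 2 and 73 (0.222%) at a spacing of 1. Of the other well known target genes listed for comparison, 4 had windows, 9 in all, and 1 of these windows, that of the retinoic acid hydroxylase gene Cyp26a1 (chr19:37697776-37697792, minus strand, with the gene on the plus strand), held such a pair. The elements of both genes are set together here because they differ in few letters.
Rarb element: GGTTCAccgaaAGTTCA
Cyp26a1 element: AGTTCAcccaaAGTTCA
A match describes the letters only and shows no binding, and a window without a match says nothing about response elements elsewhere in a gene.

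Of the 8 measured genes, Ncoa2 alone passed the test between ATRA and DMSO, and it was lower in ATRA. The 7 others did not pass, and their values went several ways, 4 with a higher and 3 with a lower mean in ATRA. The test was limma's moderated test on the deposited log2 values with p-values adjusted after Benjamini and Hochberg over the 22180 genes, and a gene passed at an adjusted p under 0.05. Of all genes, 21.9% passed, 6.48% as higher and 15.5% as lower in ATRA. The shares of higher and lower genes were 2.52% and 20.5% with the arrays centred on their medians, and 2.16% and 1.06% after removal of the trend on expression level described next. The share of lower genes was 7.86% after repeated quantile normalization and 6.78% after cyclic loess normalization.

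The ATRA arrays differed from DMSO in a way that depended on the level of a gene. Genes with a DMSO mean of 5 to 6, the range of Rxra and Rxrg, differed from DMSO by a median of 0.23 in ATRA replicate 1 and 0.61 in ATRA replicate 2. In the range of 6 to 7, which held Rara, Rarb and Rarg, these medians were 0.041 and 0.16. In the range of 8 to 9, which held Rxrb and Nrip1, they were -0.97 and -1.73. For that reason the difference of each receptor and coregulator gene is also given after removal of this trend. The trend is a smooth curve, over all genes, of each ATRA array's difference from the DMSO mean on that mean. Each DMSO array was adjusted likewise against the mean of the other DMSO arrays. Trend-removed values of single ATRA arrays are taken from the unadjusted DMSO mean, so their average can differ slightly from the fitted difference. The median difference over all genes was 0.16 as deposited, -0.11 with each array centred on its median and 0.020 with the trend removed.

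**Figure D1:**
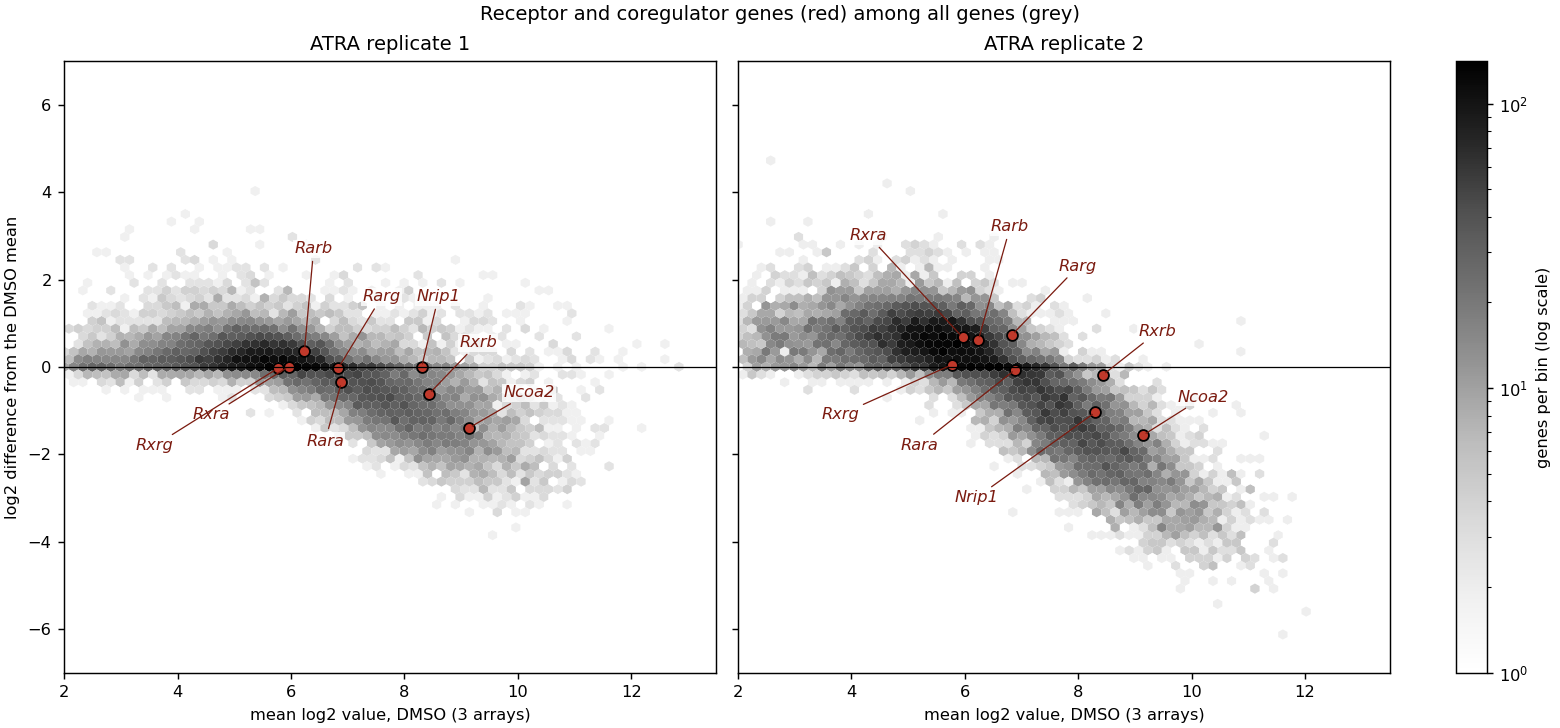
Difference of each ATRA array from the DMSO mean (y axis, log2) against the DMSO mean (x axis, log2), with the number of genes per bin in grey on a log scale and the 8 receptor and coregulator genes in red. Rxrb and Nrip1 lie above the centre of the falling band of abundant genes in both arrays. Ncoa2 lies near that centre in ATRA replicate 1 and above it in ATRA replicate 2.

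Among the retinoic acid receptors, Rarb had 6.61 and 6.85 in the ATRA arrays, against 6.05, 6.30 and 6.37 in the DMSO arrays. Both ATRA values were above every DMSO value. The log2 difference was 0.49 (SE 0.16, 95% interval 0.06 to 0.92), which is 1.41-fold higher, and it did not pass (adjusted p = 0.0965, unadjusted p = 0.0331). The trend at the level of Rarb was 0.24. With it removed the difference was 0.25 (adjusted p = 0.332), with 0.24 in ATRA replicate 1 and 0.25 in ATRA replicate 2. The sign stayed positive under each scaling of the arrays that was tried, with values from 0.22 to 0.49.

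Rara, the receptor gene known from its fusion to PML in acute promyelocytic leukemia, had 6.54 and 6.83 in the ATRA arrays, against 6.94, 6.86 and 6.86 in the DMSO arrays. ATRA replicate 1 was the lowest of the 5 arrays, and ATRA replicate 2 was 0.062 below the DMSO mean, with a DMSO SD of 0.046. The log2 difference was -0.21 (95% interval -0.58 to 0.16, adjusted p = 0.28). With the trend removed it was -0.040 (adjusted p = 0.898), with -0.18 in ATRA replicate 1 and 0.12 in ATRA replicate 2.

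Rarg had 6.81 and 7.57 in the ATRA arrays, against 6.89, 6.82 and 6.79 in the DMSO arrays. The value of ATRA replicate 2 was the highest, and that of ATRA replicate 1 lay among the DMSO values. The difference of the means was 0.36 (95% interval -0.32 to 1.04, adjusted p = 0.302), and it rested on ATRA replicate 2. Without that array it was -0.025, and without ATRA replicate 1 it was 0.74 (adjusted p = 0.00592, a fit that takes the spread of the remaining ATRA array from DMSO). With the trend removed the difference of Rarg was 0.48 (adjusted p = 0.312), with 0.12 in ATRA replicate 1 and 0.87 in ATRA replicate 2. Rarg and Rara thus had means on opposite sides of DMSO, and neither difference passed.

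Rxra, the RXR gene best known as the partner of RARs, had 5.97 and 6.64 in the ATRA arrays, against the same value of 5.96 in all 3 DMSO arrays. The 3 DMSO values were identical in every deposited digit, so the DMSO spread of 0 says nothing about the precision of this gene. The log2 difference was 0.34 (95% interval -0.26 to 0.95, adjusted p = 0.276), nearly all of it from ATRA replicate 2, at 0.68 above the DMSO mean. It became 0.0065 with the trend removed and -0.024 after cyclic loess normalization.

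Rxrb had 7.82 and 8.25 in the ATRA arrays, against 8.46, 8.42 and 8.43 in the DMSO arrays. Both ATRA values lay below the narrow DMSO range. The log2 difference was -0.40 (SE 0.17, 95% interval -0.85 to 0.05, adjusted p = 0.153). The trend at its level was -0.987 in ATRA replicate 1 and -1.701 in ATRA replicate 2. With the trend removed Rxrb lay 0.37 and 1.52 above the DMSO mean, and the fitted difference was 0.93 (adjusted p = 0.202). Quantile normalization (0.39) and cyclic loess normalization (0.84) also gave positive values, whereas with each array centred on its median the value was lower and passed (-0.67, adjusted p = 0.0463). The direction of Rxrb therefore depended on how the arrays were scaled.

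Rxrg, an RXR gene known mostly from muscle and brain, had 5.74 and 5.81 in the ATRA arrays, against 5.70, 5.81 and 5.79 in the DMSO arrays. All 5 values overlapped. The log2 difference was 0.0079, with a 95% interval from -0.29 to 0.31 (adjusted p = 0.961). It was -0.38 with the trend removed, and likewise negative after the other 3 scalings.

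**Figure D2:**
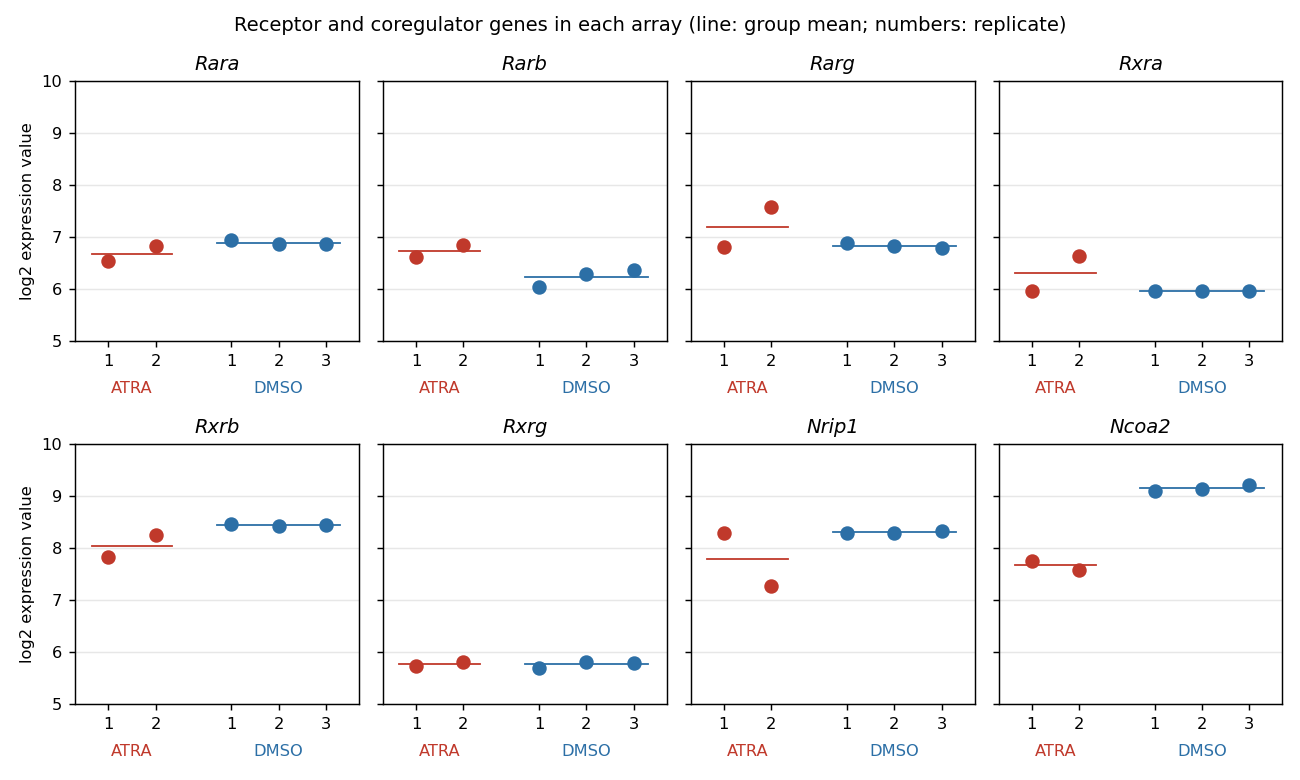
Deposited log2 value (y axis) of each receptor and coregulator gene in the 2 ATRA arrays (red) and the 3 DMSO arrays (blue), with a line at each group mean. Both ATRA points lie below all DMSO points for Ncoa2, Rxrb and Rara and above them for Rarb, and Rarg, Rxra and Nrip1 are apart from DMSO in ATRA replicate 2 by far more than in replicate 1.

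Among the coregulators, Ncoa2 encodes the p160 coactivator also called TIF2 or GRIP1. It had 7.75 and 7.58 in the ATRA arrays, against 9.08, 9.13 and 9.21 in the DMSO arrays. Both ATRA values lay more than 1 log2 unit below the lowest DMSO value, and the arrays of each group lay close together. Ncoa2 fell by 1.48 on the log2 scale (SE 0.12, 95% interval -1.81 to -1.15, adjusted p = 0.00747), which is 2.79-fold lower. The trend at the level of Ncoa2 was -1.25 in ATRA replicate 1 and -2.32 in ATRA replicate 2. With it removed, the difference was 0.29 (adjusted p = 0.577), with -0.14 in ATRA replicate 1 and 0.76 in ATRA replicate 2. Cyclic loess normalization gave -0.093 (adjusted p = 0.857) and quantile normalization -0.74 (adjusted p = 0.0594). With each array centred on its median, Ncoa2 was at -1.75 and still passed (adjusted p = 0.00393). It also passed with dim features left out (adjusted p = 0.00579) and with limma's intensity trend and robust prior (adjusted p = 0.0182). The call was also lost without any 1 of the DMSO arrays (adjusted p = 0.0633, 0.0672 and 0.0693 without DMSO replicate 1, 2 and 3), fits in which no gene of the series passed.

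Nrip1 encodes RIP140, a ligand-dependent corepressor that competes with p160 coactivators for the liganded receptor and is itself a known retinoic acid target in other cells. It had 8.29 and 7.26 in the ATRA arrays, against 8.29, 8.29 and 8.32 in the DMSO arrays. The value of ATRA replicate 1 equalled those of DMSO replicates 1 and 2 to the last deposited digit, and ATRA replicate 2 was the only low array. The log2 difference was -0.52 (SE 0.33, 95% interval -1.40 to 0.35, adjusted p = 0.26). It was -0.011 without ATRA replicate 2 and -1.04 without ATRA replicate 1 (adjusted p = 0.00189, with the spread again taken from DMSO). The trend at this level was -0.93 in ATRA replicate 1 and -1.58 in ATRA replicate 2. With the trend removed Nrip1 lay above the DMSO mean in both, by 0.92 and 0.54, and the fitted difference was 0.71 (adjusted p = 0.0926). Cyclic loess normalization gave 0.60 (adjusted p = 0.0626) and quantile normalization 0.068.

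The groups did not overlap in 5 of the 8 genes, above DMSO in Rarb and Rxra (by 0.0091 in ATRA replicate 1 for Rxra) and below it in Rara, Rxrb and Ncoa2. Such a separation held for 62.1% of all genes, 33.0% above and 29.2% below, so the share among the receptor and coregulator genes was near that of the series. With 2 against 3 arrays, an exact permutation test, two-sided, cannot give a p below 0.1, which these 5 genes reached. That test gave 0.3 for Rarg and Nrip1 and 0.9 for Rxrg. The median log2 difference over the 8 genes was -0.10, against 0.16 over all genes, and 0.27 against 0.020 with the trend removed. Rara, Rxra and Nrip1 each had a value shared by several arrays to the last digit, as did 47.8% of all genes.

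**Figure D3:**
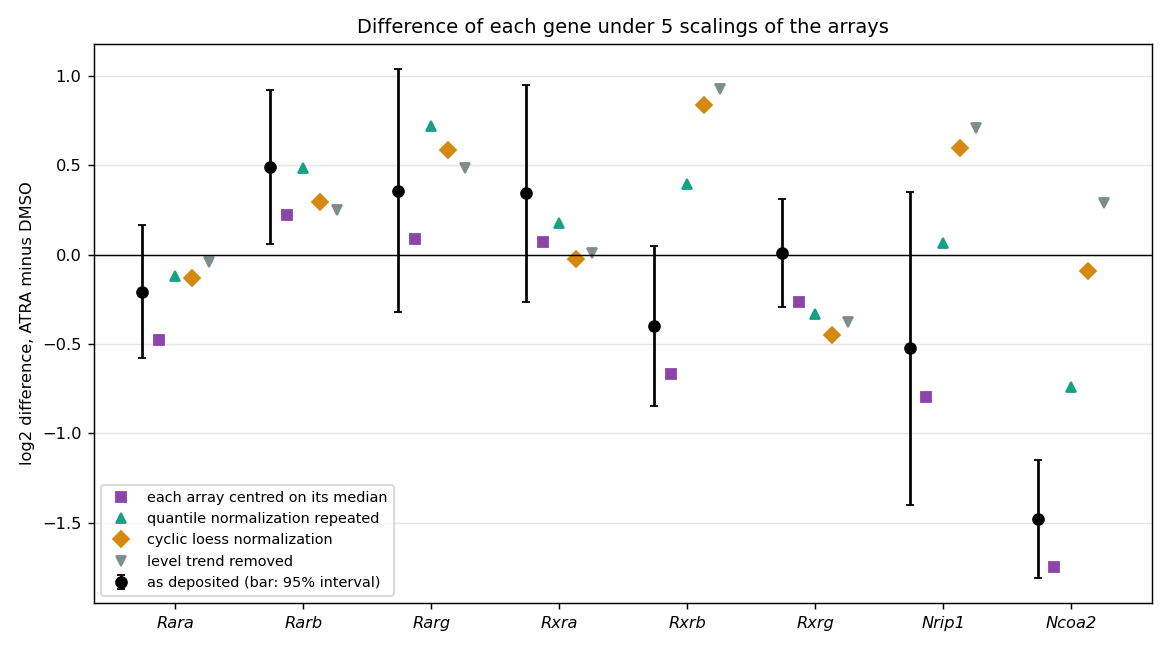
Log2 difference between ATRA and DMSO (y axis) of each receptor and coregulator gene as deposited (black, with its 95% interval) and under 4 other scalings of the arrays. Rarb and Rarg stay above 0 and Rara below 0 in all 5, while Rxra, Rxrb, Rxrg, Nrip1 and Ncoa2 have points on both sides of 0.

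The partners of the receptors were followed in 4 lists, chosen with earlier results of these data known. Of 10 corepressor complex genes other than Ncor1, 9 were measured, 0 rose and 8 fell, against 15.5% of all genes lower. Sin3b, a scaffold of histone deacetylase complexes, had 7.99 and 7.70 in the ATRA arrays, against 8.78, 8.74 and 8.74 in the DMSO arrays, and fell by 0.91 (adjusted p = 0.0188). Its paralog Sin3a fell by 2.25 (adjusted p = 0.0235). Tbl1xr1, a subunit of the NCoR complex, fell by 2.59 (adjusted p = 0.0206). The histone deacetylase gene Hdac2, the measured gene of the list that did not pass, is named after its values were seen and differed by -1.86 (adjusted p = 0.0865). The median log2 difference of the list was -2.25, and its DMSO means ran from 7.77 to 9.80, the range in which the ATRA arrays read lower for most genes. With the trend removed, the median was -0.49 and Tbl1xr1 alone passed (-1.07, adjusted p = 0.0491), while Sin3b turned to 0.62 (adjusted p = 0.171), Sin3a was -0.50 (adjusted p = 0.117) and Hdac2 -0.039 (adjusted p = 0.942). After quantile normalization 1 of the 9 genes fell, and after cyclic loess normalization 5 did.

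All 12 coactivator genes were measured, of which 0 rose and 8 fell (66.7%, against 15.5% of all genes). Their DMSO means had a median of 8.95, a range in which genes of the series in general read lower in the ATRA arrays. Carm1, the arginine methyltransferase recruited by p160 coactivators, had 7.51 and 7.40 in the ATRA arrays, against 9.93, 9.76 and 9.73 in the DMSO arrays, and was 5.10-fold lower (adjusted p = 0.00627). The coactivator gene Ncoa6 fell by 1.75 (adjusted p = 0.00665). The acetyltransferase gene Ep300, which encodes p300, fell by 2.55 (adjusted p = 0.00876). Ncoa1 and Ncoa3, the p160 paralogs of Ncoa2, are named after their values were seen. Ncoa3 fell by 1.54 (adjusted p = 0.0264), and Ncoa1 differed by -1.49 (adjusted p = 0.0667), against the -1.48 of Ncoa2. With the trend removed the 3 paralogs were at -0.77 for Ncoa1 (adjusted p = 0.21), 0.29 for Ncoa2 and -0.011 for Ncoa3 (adjusted p = 0.982). The other genes that did not pass, also named after their values were seen, were Crebbp (-1.89), Trim24 (-0.58) and Kat2b (-0.25). The list's median was -1.85 as deposited and -0.44 with the trend removed, where 0 of the 12 genes passed. Carm1 was then at -0.24 (adjusted p = 0.746), Ncoa6 at -0.80 (adjusted p = 0.0797), Ep300 at -0.74 (adjusted p = 0.178) and Crebbp at 0.32 (adjusted p = 0.483). Carm1 was also lost after cyclic loess normalization (-0.82, adjusted p = 0.214). Quantile and cyclic loess normalization left 5 lower genes each.

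**Figure D4:**
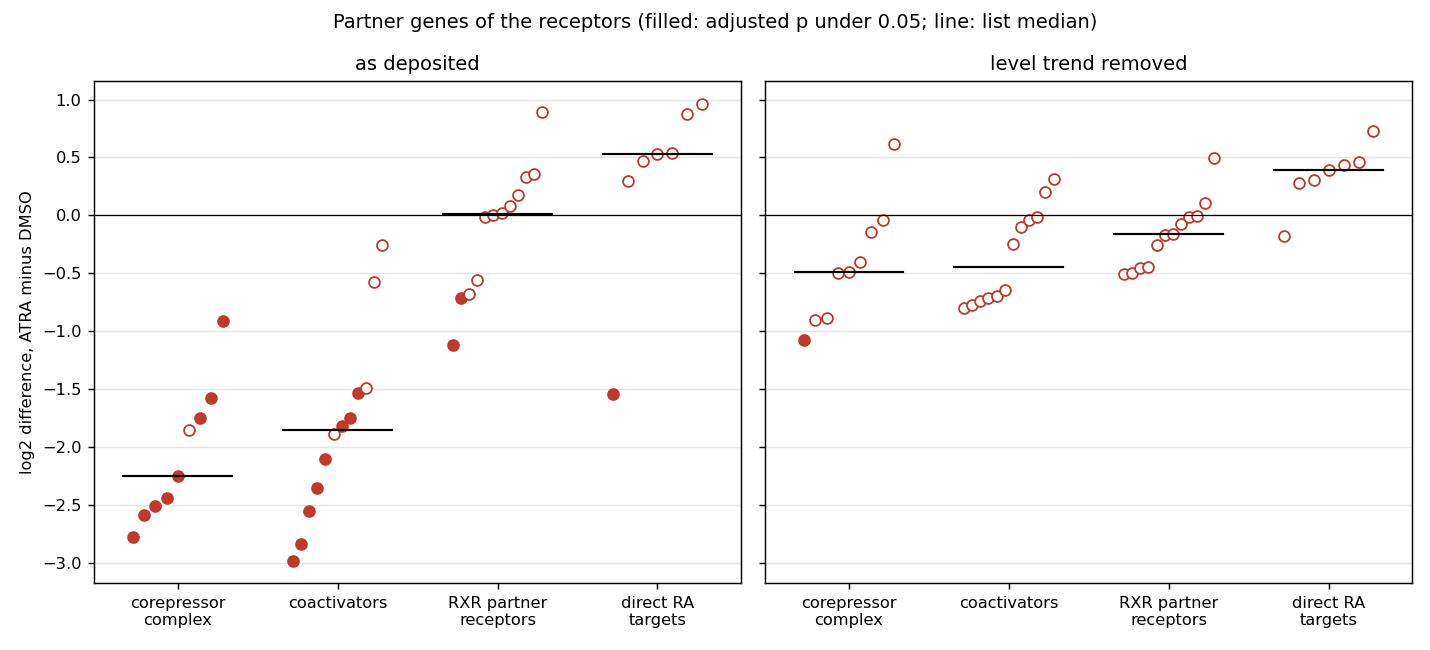
Log2 difference between ATRA and DMSO (y axis) for each measured gene of the 4 partner lists, as deposited and with the level trend removed. Filled points passed an adjusted p of 0.05 and lines mark list medians, which move from -2.25 to -0.49 for the corepressor complex and from -1.85 to -0.44 for coactivators.

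Fewer calls were made among nuclear receptors that also pair with RXR, but these genes had lower levels than the coregulators. Of 13 listed, 12 were measured (Nr1h2 was not analysed here), 0 rose and 2 fell, or 16.7%, near the 15.5% of all genes. Their DMSO means had a median of 6.07, against 9.12 for the corepressor complex and 8.95 for coactivators. Genes of the series at 6 to 7 differed by medians of 0.041 and 0.16 in ATRA replicates 1 and 2. At 8 to 9 these medians were -0.97 and -1.73. The part of expression level in the contrast between the lists was not tested. Vdr, the vitamin D receptor gene, had 6.63 and 6.09 in the ATRA arrays, against 7.31, 7.67 and 7.45 in the DMSO arrays, and fell by 1.12 (adjusted p = 0.0343). Nr4a1, an immediate early orphan receptor gene, fell by 0.71 (adjusted p = 0.0489), and Ppard, a receptor gene for fatty acids, differed by -0.68 (adjusted p = 0.0561). With the trend removed these were -0.49, -0.25 and 0.11 and none passed. The list's median was 0.010, and it was between -0.35 and -0.16 under the other 4 scalings. The value of Nr1h4, named after its values were seen, was the same in all 5 arrays.

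Of 8 well known direct targets other than Rarb, 7 were measured, 0 rose, against 6.48% of all genes, and 1 fell (14.3%, against 15.5% of all genes). Tgm2, the tissue transglutaminase gene, had 7.66 and 8.42 in the ATRA arrays, against 9.66, 9.53 and 9.56 in the DMSO arrays. It fell by 1.55 (adjusted p = 0.023), a difference that was 0.46 with the trend removed and 0.023 after cyclic loess normalization. Cyp26a1, whose element is printed beside that of Rarb, had 5.78 and 6.26 in the ATRA arrays, against 4.87, 5.16 and 5.40 in the DMSO arrays (log2 difference 0.88, adjusted p = 0.0663, and 0.39 with the trend removed). Dhrs3, a retinal reductase gene, differed by 0.96 (adjusted p = 0.0515). It passed after quantile normalization (adjusted p = 0.0439), with dim features left out (0.042) and with limma's intensity trend and robust prior (0.0463). It did not pass after cyclic loess normalization (adjusted p = 0.0859), with median centring (0.116) or with the trend removed (0.73, adjusted p = 0.198). With the trend removed, 0 of the 7 targets passed. In 6 of the 7 targets, as in Rarb, both ATRA values lay above every DMSO value, against 33.0% of all genes. At DMSO levels of 5 to 6, where Cyp26a1 lay, 57.2% of genes were separated in this way. At levels of 6 to 7, where Rarb and Dhrs3 lay, 30.9% were. This range holds levels of opposite trend, 0.24 at that of Rarb and 0.23 at that of Dhrs3, but -0.17 at that of Rara. The share of 30.9% is therefore not that at the level of Rarb and Dhrs3 themselves, which was not computed. The DMSO means of the target list had a median of 6.26. The list's median log2 difference was 0.53, and it was 0.39 with the trend removed and 0.26 with median centring.

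The genes whose 5 values, centred on the DMSO mean, lay nearest to those of Rarb were St8sia2, Ddi1 and Lce6a, with root mean square differences of 0.020 to 0.024 log2 units, and 531 genes lay within 0.1. Nearest to Rara were Sbf2, Clip3 and Agpat3, at 0.015 to 0.020, with 338 genes within 0.1. With 5 arrays such closeness is common and marks out no gene.

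Markers of the sorted cells moved with the comparison. Of 7 measured HSC markers, Kit, Mecom, Hlf, Tek and Fgd5 fell (against 15.5% of all genes) and 0 rose, and the mean level over the 7 was 7.26 and 6.57 in the ATRA arrays, against 8.33 to 8.66 in the DMSO arrays. The median log2 difference of these 7 markers was -1.37, and -0.53 with the level trend removed, where 0 of them passed. Of 3 multipotent progenitor markers 1 fell, of 3 erythroid and megakaryocyte markers 1 fell, and of 7 myeloid and 2 lymphoid markers 0 passed. With the level trend removed, 1 of the erythroid and megakaryocyte markers was higher and 0 lower, and their median went from -0.17 to 0.20. Of the multipotent progenitor, myeloid and lymphoid markers 0 then passed. The mean level of the lymphoid markers was 5.83 and 7.0 in the ATRA arrays, against 5.50 to 5.81 in the DMSO arrays, and that of the myeloid markers 6.43 and 5.97, against 6.04 to 6.30. Pearson's r across features was 0.730 for the pair of ATRA arrays, against 0.966 to 0.978 among DMSO arrays. ATRA replicate 1 was thus nearer to every DMSO array (0.811 to 0.834) than to ATRA replicate 2. The latter had 0.602 to 0.642 with the DMSO arrays. The SD of an array's values was 1.77 in ATRA replicate 1 and 1.49 in ATRA replicate 2, against 1.96 to 1.97 in DMSO. The part of the markers, and of these array properties, in the differences of the receptor and coregulator genes was not tested. In such bulk samples, fewer cells of a type and less RNA per cell cannot be told apart.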

How the data were processed

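RNA of sorted HSCs was measured on 5 Affymetrix arrays, with groups and replicate numbers taken from the sample titles. The authors deposited log2 expression values, with 1 value for every feature on every array. RMA, oligo 1.36.1 and limma 3.28.20 are named, without role or order, per the submitters' processing notes. Genome build and annotation: not given in the sources used here. Features (41345) were named through the platform annotation, with symbols updated by gene identifier (GRCm38.p6 gene table), and 23521 named 1 gene. Of several features of a gene, that of highest mean stood for it, with no filter on low values.

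ATRA was compared with DMSO by limma 3.58.1 (R 4.3.3) with lmFit and eBayes, two-sided, adjusted over 22180 genes. The fit was also run on simulated data, which held neither the level trend nor shared values and so cannot test their effect. Intervals are 95% intervals of this fit. The number of arrays limits the precision. The members and lists were chosen with earlier results of these data known. Named genes are all members, the 3 genes of smallest p per partner list, the nearest patterns to Rarb and Rara, the cell type markers by list, and those marked as named after their values were seen. Alternatives left out each array, added a replicate block, rescaled the arrays in 4 ways, left out dim features, changed the variance model and averaged a gene's features.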

Additional observations from a re-analysis of the deposited data

How the results depend on the processing

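Rarb, Rara and Rarg kept their direction under every alternative run, except that Rarg was -0.025 without ATRA replicate 2. The replicate numbers 1 and 2 are shared between groups, but nothing in the labels says that they pair the samples. The deviations of same-numbered arrays from their group means correlated at 0.134 and 0.0983 across genes. DMSO replicate 3, which shares no number, was at -0.071 and 0.071 with ATRA replicates 1 and 2. The deviations of 2 ATRA arrays mirror each other, so these correlations cannot decide on pairing. With the replicate block, 0 genes were called higher and 0 lower (limma, 5412 at an unadjusted p under 0.05), Ncoa2 was -1.44 (adjusted p = 0.141), and the corepressor, coactivator, RXR partner and target lists each had 0 lower genes.
Among all genes, 1437 were higher and 3428 lower in ATRA. These counts were 439 and 1743 after quantile normalization, 771 and 1504 after cyclic loess normalization, and 480 and 234 with the level trend removed. Centring on the median gave 560 higher genes and leaving out dim features 942. Leaving out each array gave 0 to 7424 higher and 0 to 6783 lower genes, with 0 and 0 without any 1 DMSO array (by limma's unadjusted p under 0.05, 5991, 6065 and 5907). Those fits had fewer samples, and the cause of these changes was not tested.
Without each array in turn, the log2 difference of Ncoa2 ran from -1.56 to -1.39, of Rara from -0.35 to -0.062, of Rarb from 0.37 to 0.61, of Rarg from -0.025 to 0.74, of Rxra from 0.0091 to 0.68, of Rxrb from -0.62 to -0.18, of Rxrg from -0.032 to 0.047 and of Nrip1 from -1.04 to -0.011. In fits with 1 ATRA array, whose spread comes from DMSO alone, Rara passed without ATRA replicate 2 (adjusted p = 0.0322), Rxra without ATRA replicate 1 (adjusted p = 0.00217, which tells nothing, since its DMSO values are identical), and Rxrb without either (adjusted p = 0.0262 without replicate 1 and 0.00953 without replicate 2).
Ncoa2 was -0.74 after quantile normalization, -0.093 after cyclic loess normalization and 0.29 with the trend removed. In the same order Rxrb was 0.39, 0.84 and 0.93, Nrip1 0.068, 0.60 and 0.71, and Rxrg -0.33, -0.45 and -0.38. Centring on the median gave -1.75 for Ncoa2, -0.26 for Rxrg and -0.67 for Rxrb, and cyclic loess normalization -0.024 for Rxra. Among partner genes, Sin3b was 0.39 after cyclic loess normalization and 0.62 with the trend removed, Tgm2 0.023 and 0.46, and Ppard 0.11 with the trend removed.
Lower corepressor genes numbered 1, 5 and 1 after quantile normalization, after cyclic loess normalization and with the trend removed, and lower coactivator genes 5, 5 and 0. RXR partners and targets had 0 lower genes in each of these, and RXR partners 4 with median centring. The target list had 1 higher gene after quantile normalization, without dim features and with the intensity trend. Medians under cyclic loess normalization and with the trend removed were -1.05 and -0.49 for corepressors and -1.03 and -0.44 for coactivators. Those of RXR partners were -0.35, -0.29, -0.26, -0.16 and -0.014 after quantile normalization, cyclic loess normalization, median centring, trend removal and without dim features, and that of targets was 0.26 with median centring. Leaving out each array gave 0 to 9 lower corepressor, 0 to 11 lower coactivator, 0 to 2 lower and 0 to 2 higher RXR partner, and 0 to 1 lower and 0 to 4 higher target genes, with medians of -2.84 to -1.58, -2.27 to -1.54, -0.0068 to 0.020 and 0.34 to 0.71.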
